A study of Mus musculus with 33 samples.

Results

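The immediate early genes Fos, Fosb, Jun, Junb, Egr1, Atf3 and Ier2 and the orphan nuclear receptor genes Nr4a1, Nr4a2 and Nr4a3 were followed in the interscapular brown fat of mice through 24 weeks of high-fat or normal feeding. They were chosen by name, as 10 of the 19057 genes with a probe on the array, and each was read by the brightest of its probes over 33 arrays. The animals were C57BL/6J mice of no stated genetic modification, housed singly at 24 °C with a light period of 12 hours. The high-fat diet (HFD) was AIN-76 semi-purified food that supplied 39.2 kcal% as fat (20% fat plus 1% cholesterol), and the normal diet (ND) was AIN-76 food alone. HFD groups were taken at weeks 2, 4, 8, 20 and 24 and ND groups at weeks 0, 2, 4, 8, 20 and 24. Each of these 11 groups held 3 arrays. The labels give an age of 7 weeks for all samples and do not say whether replicates were separate animals. The p-values therefore measure only how far these samples spread, which may be technical.

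Immediate early genes are transcribed within minutes of a stimulus without new protein synthesis, and their messages are short lived. Fos and Fosb proteins pair with Jun and Junb proteins to form AP-1, a transcription factor, while Egr1 is a zinc finger transcription factor that responds to growth factors and serum, and Atf3 is a stress-induced factor of the ATF/CREB family. Nr4a1, Nr4a2 and Nr4a3 are nuclear receptors whose transcription is raised by cyclic AMP. In brown fat, noradrenaline acts through beta-adrenergic receptors and cyclic AMP, and this signal reaches several of these genes through CREB, which binds the cyclic AMP response element.

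The upstream sequences of 5 members that were read on the arrays are shown because they carry, or in the case of Jun lack, the half-site of the cyclic AMP response element, TGACG on either strand, which is in capitals. Each is the 250 bases before the gene start, 5′ to 3′ in the direction of transcription, from the RefSeq promoter table of build GRCm38.p6.
Fos: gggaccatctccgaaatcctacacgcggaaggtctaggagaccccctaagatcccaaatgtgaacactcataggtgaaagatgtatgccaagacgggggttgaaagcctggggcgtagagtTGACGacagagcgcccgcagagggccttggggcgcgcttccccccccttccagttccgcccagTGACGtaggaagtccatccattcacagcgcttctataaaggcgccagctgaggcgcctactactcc
Jun: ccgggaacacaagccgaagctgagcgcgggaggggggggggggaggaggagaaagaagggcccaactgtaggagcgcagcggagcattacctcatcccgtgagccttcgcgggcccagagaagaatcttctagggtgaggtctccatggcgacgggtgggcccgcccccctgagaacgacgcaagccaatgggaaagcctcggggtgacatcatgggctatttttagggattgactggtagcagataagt
Junb: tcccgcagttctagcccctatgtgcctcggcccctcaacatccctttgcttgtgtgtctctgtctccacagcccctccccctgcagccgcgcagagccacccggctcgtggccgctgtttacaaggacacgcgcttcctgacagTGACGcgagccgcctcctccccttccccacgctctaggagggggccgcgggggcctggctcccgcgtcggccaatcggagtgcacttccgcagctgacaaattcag
Atf3: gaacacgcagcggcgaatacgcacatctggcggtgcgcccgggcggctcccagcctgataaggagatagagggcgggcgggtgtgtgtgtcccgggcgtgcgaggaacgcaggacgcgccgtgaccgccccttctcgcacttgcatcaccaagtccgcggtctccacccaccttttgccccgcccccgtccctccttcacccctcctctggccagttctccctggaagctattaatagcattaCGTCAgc
Nr4a2: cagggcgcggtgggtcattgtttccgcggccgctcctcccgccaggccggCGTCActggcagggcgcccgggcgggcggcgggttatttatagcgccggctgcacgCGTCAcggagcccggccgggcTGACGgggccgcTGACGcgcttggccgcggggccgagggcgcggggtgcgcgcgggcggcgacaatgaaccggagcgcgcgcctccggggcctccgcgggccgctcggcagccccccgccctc
These windows lie at chr12:85473640-85473889 on the plus strand, chr4:95052223-95052472 on the minus strand, chr8:84978749-84978998 on the minus strand, chr1:191183334-191183583 on the minus strand and chr2:57124004-57124253 on the minus strand. Of the 10 members all but Egr1 and Ier2 had an entry in that table, and 7 of these 8 held TGACG or its complement CGTCA in the 250 bases, against 17.8% of all 32851 promoters in the table. Fosb, Nr4a1 and Nr4a3 are among these 7, and their windows are counted here but not printed. Their starts in that table lie inside the gene span, so these windows are not wholly upstream of the gene. Nr4a2 held 4 half-sites and Fos held 2, the nearer of which began 66 bases before the start. The full element TGACGTCA, which itself contains TGACG, was in none of the 8, and 1.55% of all promoters held it. The serum response element (CArG box) was likewise in none of the 8, against 1.47% of all promoters, and Fos had a TATAAA sequence beginning 33 bases before its start, as 12.4% of promoters did on either strand somewhere in the window. A match, or its absence, concerns only the letters of this window and was not tested as a binding site.

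Levels are given as log2 normalized intensity, in which a difference of 1 is a doubling. A probe counts as detected on an array where the scanner software's detection p is under 0.01. Jun and Junb were detected on 33 of 33 arrays and Egr1 likewise, Nr4a2 on 31 and Fos on 25, whereas Atf3 was detected on 5 and Fosb on 4. Ier2, a nuclear early response protein, Nr4a1 and Nr4a3 were detected on 0 of 33 arrays. Their brightest probes lay between 4.54 and 5.39 for Ier2, between 4.48 and 5.08 for Nr4a1 and between 4.68 and 5.39 for Nr4a3, which is not above background. These 3 genes were therefore given no test, and 7 of the 10 members entered the comparisons. The second Junb probe and the other Nr4a3 probes were also detected on 0 arrays. Each value thus rests on 1 probe, and levels of different genes were not set against each other.

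Across the series the median probe signal of an array lay between 129 and 183, and an array detected between 29.5% and 33.7% of its probes. Week 24 arrays stood apart on the first principal component (35.9% of the variance), at 33.5 to 46.7 against -16.8 to 3.86 for all other arrays. Diet was therefore compared within weeks. Between weeks, time on diet and any batch that went with the week cannot be told apart. All 8 brown adipocyte markers passed the detection filter, with summed normalized intensities of 165222 to 208608 per array. Skeletal muscle markers were also present, with 13 of 15 passing and sums of 15276 to 112560. Of the lymphocyte markers 1 of 10 passed the filter and of the neutrophil markers 2 of 7. The number of arrays limits the precision of each value.

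**Figure D1:**
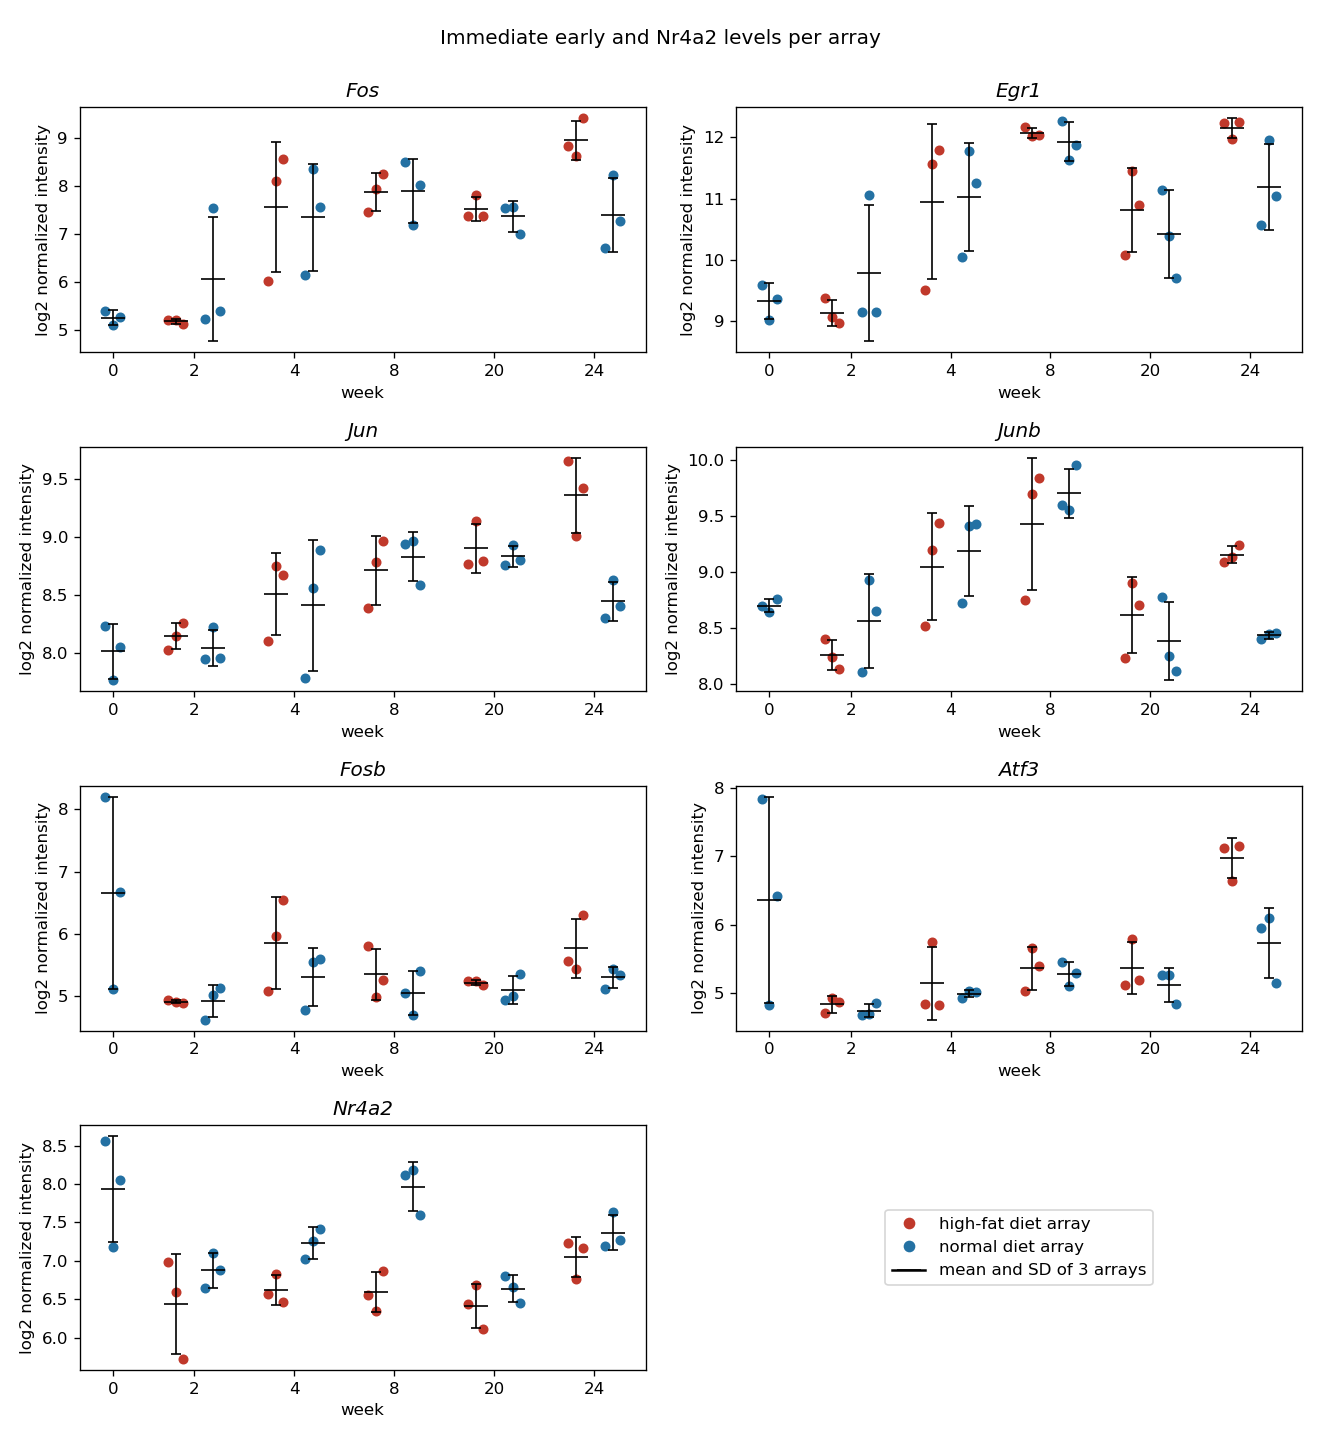
Log2 normalized intensity of the 7 members that passed the detection filter, by week, with HFD arrays in red left of ND arrays in blue, 1 point per array and bars for the mean and SD of 3 arrays. Fos and Egr1 are lowest at weeks 0 and 2 apart from 1 ND week 2 array, Fosb and Atf3 stand high on 2 of 3 ND week 0 arrays, and Nr4a2 separates by diet at week 8.

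Fos was close to background at the first time points and well above it later on both diets. On HFD it read 5.21, 5.21 and 5.11 at week 2 and 6.02, 8.10 and 8.57 at week 4. At week 8 its HFD levels were 7.46, 7.93 and 8.25, at week 20 they were 7.38, 7.81 and 7.37, and at week 24 they were 8.84, 8.63 and 9.42. The HFD week 24 arrays were thus above all other HFD arrays, and none of the 3 HFD week 2 arrays detected the gene. On ND it read 5.40, 5.10 and 5.27 at week 0, again undetected, and 5.24, 7.55 and 5.39 at week 2. At weeks 4, 8, 20 and 24 its ND means were 7.35 ± 1.11, 7.90 ± 0.67, 7.37 ± 0.32 and 7.40 ± 0.77 (SD, n = 3 each). One ND array of week 2 was therefore far above the other two, and from week 4 on every array of both diets detected Fos. Its highest group mean was 8.96 ± 0.41 in HFD week 24 and its lowest 5.18 ± 0.06 in HFD week 2 (SD, n = 3 each). With the undetected week 2 arrays held at the floor of detection, the span was at least 6.96-fold on this background-corrected scale. The deposited intensities of the probe were 628, 548 and 865 in HFD week 24 and 143, 150 and 153 in HFD week 2. The size of that bound thus depends on the background correction. Ordered by mean, only 2 of the 10 steps between neighbouring groups exceeded the larger SD, namely that below HFD week 24 and that between ND week 4 and ND week 2.

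Egr1 followed the same course at a readable level on all arrays. On HFD its means were 9.14 ± 0.21 at week 2, 10.95 ± 1.26 at week 4, 12.08 ± 0.08 at week 8, 10.82 ± 0.69 at week 20 and 12.15 ± 0.16 at week 24 (SD, n = 3 each). On ND they were 9.33 ± 0.29 at week 0, 9.78 ± 1.11 at week 2, 11.03 ± 0.88 at week 4, 11.93 ± 0.32 at week 8, 10.42 ± 0.72 at week 20 and 11.19 ± 0.71 at week 24 (SD, n = 3 each). HFD week 24, HFD week 8 and ND week 8 formed the top 3 groups and did not differ from each other beyond their SDs. The next step down, to ND week 24, was 0.73 and exceeded the larger SD of 0.71.

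Change across weeks was tested within each diet by moderated F tests of limma over the 9630 genes that passed the detection filter, with Benjamini-Hochberg adjustment. Over the 5 HFD weeks 5 of 7 members passed, where 64.4% of all genes did. These were Fos (adjusted p = 6.85e-05), Egr1 (1.17e-04), Jun (4.22e-04), Atf3 (6.63e-04) and Junb (0.00222), while Nr4a2 (0.206) and Fosb (0.246) did not. Without the week 24 arrays Fos, Egr1 and Junb still passed, Jun had an adjusted p of 0.0547 and Atf3 one of 0.657. Over the 6 ND weeks all 7 passed, where 66.5% of all genes did, with adjusted p from 3.58e-04 for Junb to 0.0136 for Atf3. Atf3 was detected on 5 arrays, 3 of them in HFD week 24, and Fosb on 4, 2 of them in ND week 0. Each entered the tests through a group where it was high. Atf3 therefore adds no independent support to the count over the HFD weeks, nor Fosb to that over the ND weeks. In an alternative added after the data were seen, which left out week 0, Fos had an adjusted p of 0.0903 and Fosb one of 0.648, and the other 5 passed. The Fosb call over the ND weeks was also lost without ND week 0 replicate 1 (0.231) or replicate 3 (0.0547). Summed skeletal muscle markers were 15276 to 17954 on ND week 0 arrays and 21435 to 32825 on ND week 2 arrays. On ND they were 28830 to 74922 at week 4 and 42182 to 64371 at week 8. At ND week 20 they were 32844 to 46014 and at ND week 24 46338 to 53098. With the mean of these markers as a covariate the limma adjusted p over the ND weeks was 0.0819 for Fos and 0.0921 for Fosb.

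High-fat feeding went with higher Jun, Junb and Atf3 messages at week 24, and with no called difference in those genes at weeks 2, 4, 8 or 20. Jun read 9.65, 9.02 and 9.42 in HFD week 24 and 8.30, 8.63 and 8.41 in ND week 24. Junb read 9.09, 9.14 and 9.25 in HFD week 24 and 8.41, 8.45 and 8.46 in ND week 24. Atf3 read 7.13, 6.63 and 7.15 in HFD week 24, detected on 3 of 3 arrays, and 5.96, 6.10 and 5.14 in ND week 24, detected on 0 of 3. The HFD arrays of all 3 genes lay above every ND array. In limma's moderated test the rise was 0.91 log2 units for Jun (SE 0.21, adjusted p = 0.00291), 0.72 for Junb (SE 0.25, adjusted p = 0.0455) and 1.24 for Atf3 (SE 0.41, adjusted p = 0.0320). Because ND week 24 has only a bound for Atf3, its difference reads as at least 1.89-fold on this background-corrected scale, set against a floor that, on each ND array, is the dimmest detected probe or this probe itself, whichever is brighter. Without background correction the Atf3 difference was 0.50 log2 units (1.42-fold), and on the authors' log2 values it was 0.61 (1.53-fold), so the size of that bound depends on the background correction. Atf3 was detected on 5 arrays, 3 of them in HFD week 24, so it entered the test through the group where it was high, and with no detection filter its adjusted p was 0.0553. Thus 3 of 7 members were called, all higher, against 20.4% of all genes called and 12.7% called higher, and Atf3 adds no independent support to that count.

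Fos and Egr1 also lay higher at week 24 but did not pass. Fos read 8.84, 8.63 and 9.42 in HFD week 24 and 6.71, 8.23 and 7.27 in ND week 24, a difference of 1.56 (SE 0.57, limma adjusted p = 0.0527). Egr1 read 12.23, 11.97 and 12.26 in HFD week 24 and 10.57, 11.96 and 11.05 in ND week 24, a difference of 0.96 (SE 0.52, limma adjusted p = 0.212). In both genes ND replicate 2 came close to the HFD arrays without overlapping them. Fosb differed by 0.47 (SE 0.44) and Nr4a2 by -0.31 (SE 0.27). Counted over the members, 5 of 7 had all HFD week 24 arrays above all ND week 24 arrays, where 20.6% of all genes did. The median difference of the 7 was 0.91 beside 0.007 over all genes. Atf3 is among the 5 and entered the test through its HFD week 24 arrays, so it adds no independent support to this count or median.

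The week 24 calls differed in how firmly they held. Jun passed whichever of the 33 arrays was left out, with limma adjusted p of 0.000568 to 0.0268. Junb did not pass without any 1 of the 6 arrays of week 24 (adjusted p 0.0705 to 0.120). It also narrowly missed the threshold, at an adjusted p of up to 0.0518, without HFD week 2 replicate 2 or 3, HFD week 20 replicate 3, any ND week 0 array, ND week 2 replicate 3, ND week 8 replicate 1 or ND week 20 replicate 2. With a trended robust prior its adjusted p was 0.0516, and with no detection filter it was 0.0775. Atf3 did not pass without HFD replicate 1 (0.0946), HFD replicate 3 (0.0975), ND replicate 1 (0.0560) or ND replicate 3 (0.136) of week 24. Fos passed under 13 of 44 alternatives. Whether the differences varied between weeks was tested as a diet by week interaction, which called 0 of 7 members against 6.41% of all genes, with limma adjusted p of 0.149 for Jun, 0.223 for Junb, 0.234 for Nr4a2 and 0.302 for Fos. Before adjustment the values of Jun, Junb and Nr4a2, 3 of the 7, were under 0.05, as were 20.7% of all genes, and Jun passed without ND week 4 replicate 1 (adjusted p 0.0344).

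**Figure D2:**
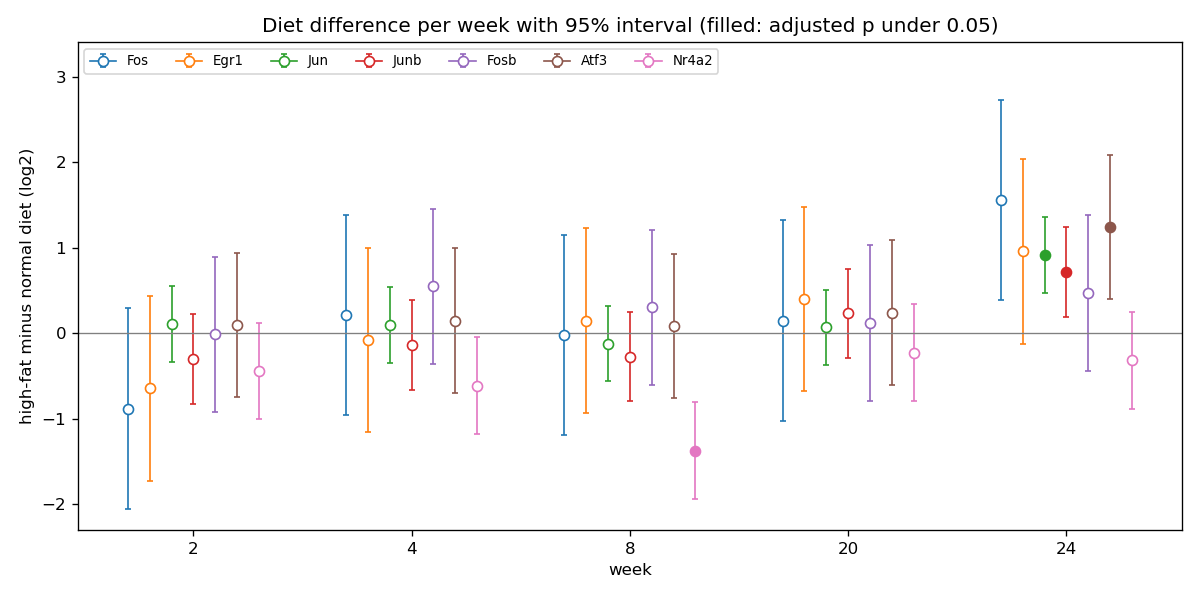
HFD minus ND log2 difference for each member at weeks 2, 4, 8, 20 and 24, with the 95% interval of the limma fit, filled where the adjusted p over all genes was under 0.05. Jun, Junb and Atf3 are filled at week 24 and Nr4a2 at week 8, where it lies at -1.37.

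Macrophage markers moved with diet at the same time point. Of 10 listed, Cd68 did not pass the detection filter, and all 9 that did were higher in HFD at week 24, with a median difference of 1.24, and their summed normalized intensity was 10199 to 10793 in HFD arrays and 3737 to 4567 in ND arrays. Of 7 endothelial markers 4 were higher, and skeletal muscle markers were spread widely within HFD week 24, with sums of 25626 to 112560 against 46338 to 53098 in ND week 24. In bulk tissue a change in the number of cells of a type and a change in RNA per cell cannot be told apart. The part of macrophage and endothelial cells in the week 24 differences was not tested. With the muscle marker mean as a covariate the 3 calls remained, at adjusted p of 0.00356 for Jun, 0.0472 for Junb and 0.0358 for Atf3.

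Related gene lists held further calls at week 24, to be read beside the 20.4% of all genes called and the 12.7% called higher. Of 39 further immediate early genes that passed the filter, of 53 listed, 9 rose and 0 fell, with a median of 0.32 beside 0.007 for all genes and 32 of 39 above 0. Named by smallest p, these were Klf6, a zinc finger factor (0.83, SE 0.14), Egr2, a relative of Egr1 (at least 1.74-fold, as it was detected on 3 of 3 HFD and 0 of 3 ND arrays), Mcl1, an inhibitor of apoptosis (0.63, SE 0.16), and Socs3, a brake on cytokine signalling (0.75, SE 0.20), with limma adjusted p of 8.8e-05 to 0.00938. Of 10 other AP-1 family genes 2 rose and 0 fell. Of 14 upstream kinases and factors of the response 2 rose and 0 fell, of 15 beta-adrenergic and cyclic AMP response genes 1 rose and 1 fell, and of 10 heat shock genes 3 rose and 1 fell.

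Nr4a2 was lower on HFD, and at another week. At week 8 it read 6.56, 6.35 and 6.87 in HFD and 8.12, 8.18 and 7.60 in ND, with no overlap, where 7.56% of all genes had all 3 HFD arrays below all 3 ND arrays. The fall of 1.37 log2 units (SE 0.27, limma adjusted p = 0.0120) was the only call among the 7 members at that week, where 2.1% of all genes were called and 1.17% were called lower. It did not pass without ND week 8 replicate 1 (difference -1.29, adjusted p = 0.0519), nor in a fit of the 6 arrays of week 8 alone (adjusted p = 0.225), in which 0.0104% of all genes passed. No macrophage, endothelial or muscle marker passed at week 8, and with the muscle covariate the difference was -1.41. Scaling by a median shift, with no quantile normalization, lowered the week 8 difference of the median gene by 0.31, and Nr4a2 was still called. Its fall was smaller on other scales, at -0.76 without background correction and -0.82 on the authors' log2 values, and it was called on both.

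Its HFD mean was below its ND mean at all 5 weeks. At week 4 it read 6.57, 6.84 and 6.46 in HFD and 7.02, 7.26 and 7.42 in ND, again without overlap (difference -0.61, SE 0.27, limma adjusted p = 0.348), where 12.9% of all genes had all 3 HFD arrays below. The differences were -0.44 at week 2, -0.23 at week 20 and -0.31 at week 24, with the arrays of the diets overlapping. Averaged over the 5 weeks the fall was 0.59 (SE 0.12, limma adjusted p = 6.98e-04), and this held whichever array was left out (adjusted p up to 0.00162). Nr4a2 was the only 1 of the 7 members called for that average, against 27.1% of all genes called and 11.7% called lower.

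Its ND levels also varied with week. They averaged 7.93 ± 0.69 at week 0, 6.88 ± 0.23 at week 2, 7.23 ± 0.20 at week 4, 7.97 ± 0.32 at week 8, 6.64 ± 0.18 at week 20 and 7.37 ± 0.23 at week 24 (SD, n = 3 each). HFD means stayed between 6.41 ± 0.29 at week 20 and 7.05 ± 0.26 at week 24 (SD, n = 3 each). On ND the rise at week 24 relative to week 20 was 0.73 (SE 0.27, limma adjusted p = 0.0383), 1 of 7 members called where 37.8% of all genes were called and 20.8% were called higher. That call was lost without ND week 24 replicate 2 or 3 (adjusted p 0.140 and 0.0619) or ND week 20 replicate 2 or 3 (0.0733 and 0.122), and with no detection filter (0.0617).

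At weeks 2, 4 and 20 none of the 7 members passed the diet test in limma, where 1.9%, 1.19% and 4.66% of all genes did. Among the 21 unadjusted p-values of those weeks only that of Nr4a2 at week 4 was under 0.05. The Fos difference at week 2 was -0.88 with a 95% interval of -2.05 to 0.29 and no overlap of the arrays, where 11.5% of all genes had the HFD arrays below, and that of Egr1 was -0.64 with an interval of -1.72 to 0.43. Fos was detected on 1 of these 6 arrays, and both intervals include a halving. For Jun, the steadiest member, the intervals at weeks 2, 4 and 20 lay within -0.37 and 0.55. Among the other immediate early and AP-1 genes, the interferon-response factor gene Irf1 rose by 0.58 (SE 0.13) and the clock gene Per1 fell by 0.92 (SE 0.25) at week 2. Socs3 and Batf2, not detected on ND week 2 arrays, were at least 1.38-fold and 1.20-fold higher on HFD there. Dusp4, a phosphatase that acts on MAP kinases, fell by 1.33 (SE 0.24) at week 4 and by 0.83 (SE 0.24) at week 20, and Jdp2, a Jun partner not detected on ND week 8 arrays, was at least 1.34-fold higher on HFD at week 8.

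From week 20 to week 24 on HFD 3 of 7 members rose, where 43.1% of all genes were called and 24.5% were called higher. Atf3 averaged 6.97 ± 0.29 in HFD week 24 and 5.37 ± 0.37 in HFD week 20 (SD, n = 3 each), where it was not detected, which makes it at least 1.69-fold higher on this background-corrected scale (fitted difference 1.61, limma adjusted p = 0.00258). Without background correction the Atf3 difference was 0.63 log2 units (1.55-fold), and on the authors' log2 values it was 0.78 (1.72-fold). The size of that bound thus depends on the background correction. Fos rose by 1.44 (SE 0.57, limma adjusted p = 0.0426) and Egr1 by 1.33 (SE 0.52, adjusted p = 0.0417). The call of Fos was lost without any 1 of the 6 arrays compared (adjusted p 0.0518 to 0.140), and that of Egr1 without any of them but HFD week 20 replicate 2 (0.0624 to 0.190). Both calls were also lost with array weights (0.0692 for Fos and 0.0600 for Egr1), with a trended robust prior (0.0619 and 0.0608) and with no detection filter (0.0679 and 0.0665). In 6 of 7 members all HFD week 24 arrays lay above all HFD week 20 arrays, against 31% of all genes, the exception being Jun. Atf3 entered the test through its HFD week 24 arrays, so it adds no independent support to the count called or to this one. Fosb was detected on 1 of 3 HFD week 24 arrays and 0 of 3 HFD week 20 arrays. Its order is therefore mostly one among background values. Of the 39 other immediate early genes 20 were called, of which 17 rose and 3 fell, beside 43.1% of all genes called and 24.5% called higher. The rises were led by Klf6 (1.10), Ier5l (1.32) and Csrnp1 (1.03). Macrophage markers were higher in 6 of 9 and lower in 1 over the same interval, and their part was not tested. The HFD week 24 arrays enter both this comparison and the diet comparison of week 24.

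Fosb and Atf3 were seen in ND week 0 and few other groups. Fosb read 8.19, 5.12 and 6.67 on ND week 0 replicates 1, 2 and 3. Atf3 read 7.84, 4.83 and 6.42 on them, in the same order. Both genes were thus well above background on replicates 1 and 3 and at background on replicate 2. Nr4a2 read 8.55, 7.19 and 8.05 there, Jun 8.24, 7.77 and 8.06 and Egr1 9.60, 9.02 and 9.37, so that, of the 6 members detected in this group, replicate 2 was lowest for 6 and replicate 1 highest for 5. Over all genes replicate 2 was lowest for 32.8% and replicate 1 highest for 35.2%. Outside week 0 Fosb was detected on HFD week 4 replicate 3 (6.54) and HFD week 24 replicate 3 (6.31), and Atf3 on the HFD week 24 arrays.

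Relative to week 0, Fosb on ND was lower at week 2, at 4.62, 5.02 and 5.12. Atf3 was at 4.69, 4.69 and 4.85, and Nr4a2 at 6.65, 7.11 and 6.88. In limma Fosb fell by 1.74 (SE 0.44, adjusted p = 0.00782), Atf3 fell by 1.62 (SE 0.41, adjusted p = 0.00751) and Nr4a2 fell by 1.05 (SE 0.27, adjusted p = 0.00928), which is 3 of 7 members called against 17% of all genes called and 10% called lower. Fosb was detected on 4 arrays, 2 of them in ND week 0, so it entered the test through the group where it was high. Neither gene was detected at week 2, and the bounds were at least 1.49-fold lower for Fosb and at least 1.21-fold lower for Atf3. The fitted falls of Fosb and Atf3 are therefore no measure of size, and without background correction Fosb fell by 0.78 and Atf3 fell by 0.71. Only Nr4a2 had all 3 week 2 arrays below all 3 week 0 arrays, as 23.1% of all genes did, since week 0 replicate 2 was within the week 2 range for Fosb and Atf3. All 3 calls were lost without week 0 replicate 1, at adjusted p of 0.0976 for Fosb, 0.0930 for Atf3 and 0.0947 for Nr4a2.

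Other genes showed the same order of arrays at week 0. Ppargc1a, a coactivator of heat production that cyclic AMP raises in brown fat and 1 of the 8 brown adipocyte markers, read 12.36, 10.05 and 11.39 on the ND week 0 arrays and averaged 9.81 ± 0.19 at ND week 2 (SD, n = 3; fall of 1.46, SE 0.31, limma adjusted p = 0.00223). Egr3 read 7.17, 4.85 and 6.36 at week 0, and Fosl2, an AP-1 partner, 9.41, 7.49 and 8.63. These 3 genes were named after their values were seen. Markers of blood cells had the same order, with summed red blood cell markers of 57459, 33897 and 43591 and summed neutrophil markers of 316, 203 and 228 on ND week 0 replicates 1, 2 and 3. So had summed skeletal muscle (17954, 15276 and 15994) and endothelial markers (6551, 6101 and 6138). Summed brown adipocyte markers (172900, 168214 and 171785) had it as well, but they include Ppargc1a. Their order therefore adds nothing independent to that of Ppargc1a. The lymphocyte marker that passed the filter (58.6, 40.1 and 56.2) had it too. Summed macrophage markers did not (2687, 3326 and 3170). At ND week 2 the sums were 36348 to 47389 for red blood cells, with 1 of 3 markers lower in the test, and 115 to 167 for neutrophils, with 1 of 2 lower. The part of any of these cell types in the week 0 values was not tested. Of the 39 other immediate early genes 6 fell and 2 rose at week 2, and of the 10 other AP-1 genes 2 fell, shares close to the 17% of all genes called. By smallest p the falls were led by Atf5 (-0.75), Errfi1 (-0.97), Jdp2 (-0.84) and Ier5l (-0.62), and the rises were Dusp4 (1.35) and Ccn1, which was not detected at week 0 and was at least 1.69-fold higher.

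Members varied widely between arrays of the same group. The SD within groups, pooled over the 11 groups, was 0.76 for Fos, 0.70 for Egr1, 0.59 for Fosb and 0.54 for Atf3, against a median of 0.17 for all 9630 genes. The values of Fosb and Atf3 rest largely on ND week 0, and over the other 10 groups they were 0.38 and 0.31. Over all 11 groups the SD was 0.36 for Nr4a2, 0.33 for Junb and 0.28 for Jun. Fos exceeded 99.93% of all genes and Egr1 99.91%, and among the 963 genes of similar level every one of the 7 members exceeded at least 95.6%. The extremes were single arrays, since Fos spanned 2.55 within HFD week 4 and 2.31 within ND week 2, while HFD week 2 spanned 0.10. Fos was detected on 0 of 3 HFD week 2 arrays and 1 of 3 ND week 2 arrays. The span of 0.10 is therefore one of background values, and that of 2.31 is a distance from background.

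**Figure D3:**
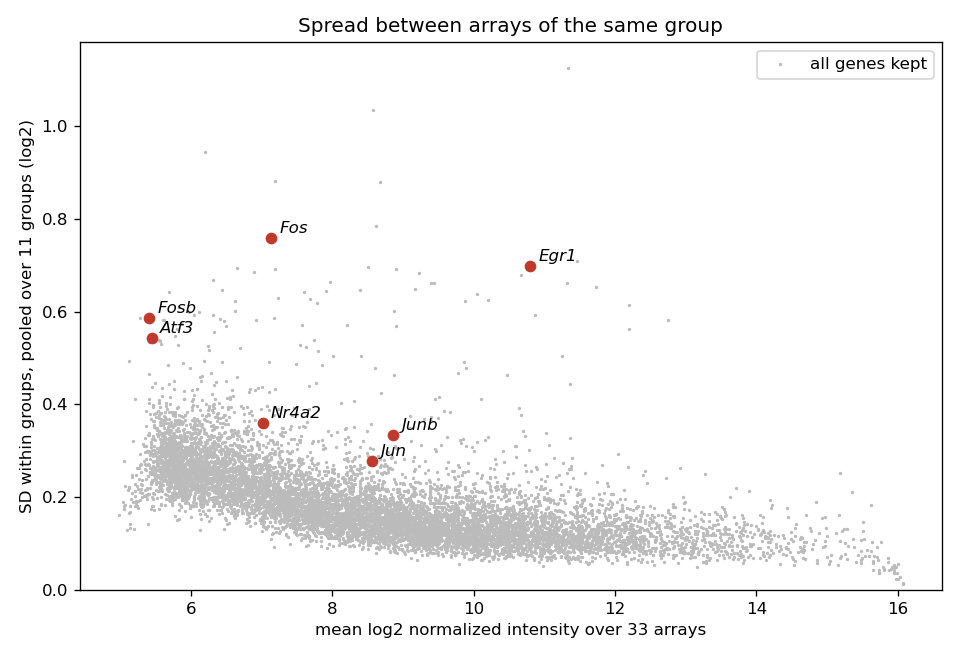
SD between arrays of the same group, pooled over 11 groups, against mean log2 normalized intensity over 33 arrays, for 9630 genes in grey and the 7 members in red. Fos at 0.76 and Egr1 at 0.70 lie near the top of all genes, and Jun at 0.28 lies closest to the bulk.

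Several members moved together within groups. After subtraction of group means, Fos and Egr1 correlated over 33 arrays at Pearson's r of 0.907 and Spearman's rho of 0.864. The permutation p for r, from 100000 permutations within groups, was 4.2e-04 after Benjamini-Hochberg adjustment over the 21 pairs of members. Without the 2 arrays farthest from the Fos median r was 0.856, and it was 0.856 within HFD (n = 15) and 0.939 within ND (n = 18). All 21 pairs of members correlated positively, and 13 had a Benjamini-Hochberg adjusted permutation p under 0.05 for r. The share of all gene pairs that correlate so was not computed, so these counts have no background beside them. Fosb was detected on 4 of 33 arrays and Atf3 on 5, so their pairs rest mostly on background values. For Atf3 and Nr4a2 r was 0.61, and it was 0.30 without the week 0 arrays. The lowest r was that of Junb and Atf3, at 0.223 (rho 0.310, adjusted permutation p = 0.111). Fosb and Atf3 had r of 0.663 but rho of 0.140, and r was 0.014 without ND week 0 replicates 1 and 2, so that relation rests on those 2 arrays. Both members of a pair were read on the same hybridization.

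**Figure D4:**
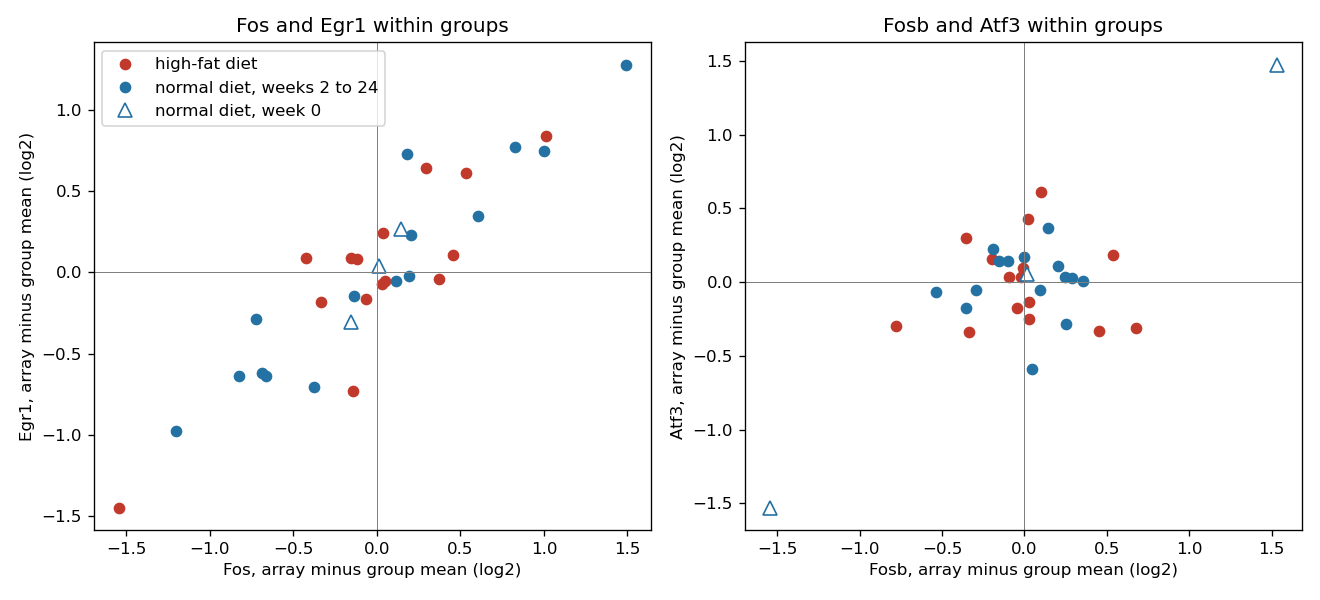
Deviation of each array from its group mean in log2 units, for Egr1 against Fos (left) and Atf3 against Fosb (right), with HFD arrays in red, ND arrays of weeks 2 to 24 in blue and ND week 0 arrays as open triangles. Fos and Egr1 lie along a line (r of 0.907 over 33 arrays), whereas Fosb and Atf3 do so only through 2 week 0 arrays (r of 0.014 without them).

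Single arrays stood out for most members at once. In HFD week 4 replicate 1 was lowest for 5 of the 6 members detected in that group (31.9% of all genes), with Fos at 6.02 against 8.10 and 8.57 and Egr1 at 9.50 against 11.56 and 11.79. In ND week 4 replicate 1 was lowest for all 5 members detected there (32.1% of all genes), and in ND week 24 replicate 2 was highest for 4 of the 5 detected (30.4% of all genes). Replicate 1 of ND week 24 was lowest for all 5 (37% of all genes). In HFD week 20 replicate 2 was highest for all 5 detected (31.2% of all genes). In HFD week 24 replicate 2 was lowest for 6 of 7 (36.6% of all genes). In ND week 2 replicate 2 was highest for all 5 detected (33.3% of all genes), with Egr1 at 11.06 against 9.14 and 9.14. Summed skeletal muscle markers were lowest of 3 on HFD week 4 replicate 1 (55834 against 58599 and 76054) and highest of 3 on ND week 24 replicate 2 (53098 against 46389 and 46338) and ND week 2 replicate 2 (32825 against 21435 and 31572). They lay between the others on ND week 4 replicate 1 (49069 against 74922 and 28830), and they were lowest on HFD week 24 replicate 3, which was highest of 3 for 5 of 7 members (35.5% of all genes). They were highest on HFD week 24 replicate 2 (112560 against 42977 and 25626). On HFD week 20 replicate 2 (44527 against 32561 and 47185) and ND week 24 replicate 1 they lay between the others. Their part in this spread was not tested.

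By likeness of level over the 33 arrays, the genes nearest to Fos were Egr1 (r of 0.93), Ccn1, a secreted matrix protein (0.87), and Dusp1, a phosphatase that turns off MAP kinases (0.84). Those nearest to Egr1 were Fos (0.93), Dusp1 (0.84) and Ccn1 (0.79). These correlations are descriptions over arrays that differ in week and diet. Dusp1 read 13.32, 12.62 and 13.06 in HFD week 24 and 11.51, 12.67 and 11.52 in ND week 24. Ccn1 averaged 8.06 ± 0.07 in HFD week 24 and 7.52 ± 0.10 in ND week 24 (SD, n = 3 each). Nr4a1 was not detected and was given no such list.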

How the data were processed

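Total RNA of 33 samples was hybridized to Illumina mouse bead arrays. The deposited intensity table holds, per the file headers, a linear probe intensity and a detection p-value per probe and array, and BeadStudio 3.1.3 is named per the submitters' processing notes. The authors also deposited log2 values, used here only as an alternative, and their normalization is not given in the sources used here. Members were matched by symbol to 13 probes through the platform annotation. The deposited intensities of 45281 probes were corrected by the normexp model with negative controls inferred from the detection p-values, given an offset of 16, quantile normalized and put on the log2 scale. Probes with detection p under 0.01 on at least 3 of 33 arrays were kept (17243), and the brightest probe stood for each gene (9630 genes of 19057).

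A limma model with 11 group means (22 residual, 4.13 prior degrees of freedom) was fitted to all genes. Its moderated tests were adjusted over all 9630 genes (Benjamini-Hochberg), with a threshold of 0.05. Correlations used 100000 permutations of arrays within groups. The members, lists and tests were chosen with earlier results of these data known. Named beside the 10 members were up to 4 other immediate early or AP-1 genes per comparison and direction by smallest p, the 3 genes most like Fos and Egr1, and the member pairs of highest and lowest correlation. The fit was tested on simulated data. The alternatives left out the background correction, the detection filter, week 24, other weeks or each array in turn. Others used a stricter filter, a median shift, the authors' log2 values, averaged probes, a block for replicate number, array weights, a trended robust prior or a muscle covariate. Fits were run with limma 3.58.1 in R 4.3.3, and matplotlib 3.10.9 drew the figures.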

Additional observations from a re-analysis of the deposited data

Results flagged for a closer look

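The Fos arrays of the diets did not overlap at weeks 2 and 24, with HFD below ND at week 2 and above it at week 24. The fitted difference was -0.88 at week 2 and 1.56 at week 24, and neither passed in limma (adjusted p = 0.519 at week 2 and 0.0527 at week 24). At week 2 Fos was detected on 0 of 3 HFD arrays and 1 of 3 ND arrays, so the order of its week 2 values is mostly an order among background values, and the size of that difference has no meaning beyond it. The pair of weeks was not tested on its own. The limma F test of the diet by week interaction over all 5 weeks gave Fos an adjusted p of 0.302.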

How the results depend on the processing

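Of 1054 recomputed values of single called members, 997 stayed past the threshold, 57 did not, and 0 changed direction. Counts of called members moved by over 1.5 times as follows. A median shift called 2 members for diet at week 8 (38.7% of all genes), 3 for the interaction and 6 for HFD week 24 minus week 20. Without a detection filter 1 was called for diet at week 24 and 1 for HFD week 24 minus week 20, and a trended robust prior also called 1 there. For ND week 24 minus week 20 the 1 call without a filter was Nr4a1, which was detected on 0 arrays, and not Nr4a2. Array weights called 2 for the mean diet difference. Without week 24 arrays 3 were called over the HFD weeks, and the 6 arrays of week 8 alone called 0. Leaving out each array gave 0 to 1 calls for diet at week 8, 1 to 4 at week 24, 1 to 2 for the mean, 0 to 1 for the interaction, 6 to 7 over the ND weeks, 0 to 3 for ND week 2 minus week 0, 0 to 1 for ND week 24 minus week 20 and 1 to 4 for HFD week 24 minus week 20. The second call for the mean was Atf3 without ND week 0 replicate 1 or 2, and Jun without HFD week 4 replicate 1 or ND week 4 replicate 3. The cause was not tested.

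A median shift also changed the share of called genes that were higher, to 0.913% against 44.1% at week 8, 14.2% against 65.3% at week 20, 77.5% against 62.4% at week 24, 25.5% against 57% for the mean, 8.8% against 41% for ND week 2 minus week 0, 79.5% against 55% for ND week 24 minus week 20 and 89.9% against 56.9% for HFD week 24 minus week 20. It moved the median gene by 0.46 in the last of these, 0.26 in ND week 24 minus week 20 and -0.22 in ND week 2 minus week 0.

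Replicate numbers did not pair the arrays: 2 of 15 same-number pairs had deviations correlated over 0.1 (range -0.110 to 0.133), and 5 of 15 HFD arrays correlated best with their own number. With a replicate block 4 members were called for diet at week 24, the added one being Fos, and no other count changed. Atf3 and Fosb are limited by signal near background in most groups.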
